A study of Saccharomyces cerevisiae with 12 samples.

Results

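Budding yeast keeps separate genes for the aerobic and the low-oxygen form of several proteins. Such genes, 9 of the 5636 measured, are described here in 3 deletion strains: PET9, AAC1 and AAC3, which encode the mitochondrial ADP/ATP carrier, CYC1 and CYC7, which encode cytochrome c, COX5A and COX5B, which encode the Cox5 subunit of cytochrome c oxidase, and HYP2 and ANB1, which encode the translation factor eIF5A. They were taken by symbol as known isoform pairs, and the set was chosen on measured ratios of these same strains. Their values are therefore given as a description, and no test of them is read. They were read from 14 of the 9271 probes that name 1 gene, with 2 probes each for AAC1, AAC3, CYC7, COX5B and ANB1 and 1 probe for each of the others. Their systematic names are YBL030C for PET9, YMR056C for AAC1, YBR085W for AAC3, YJR048W for CYC1, YEL039C for CYC7, YNL052W for COX5A, YIL111W for COX5B, YEL034W for HYP2 and YJR047C for ANB1.

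Oxygen reaches these genes largely through heme, whose synthesis needs oxygen. With heme present, the activators Hap1 and the complex of Hap2, Hap3, Hap4 and Hap5 drive aerobic genes such as CYC1 and COX5A, and Hap1 also drives ROX1. The Rox1 repressor, working with the general corepressor of Tup1 and Cyc8, then holds down hypoxic genes such as AAC3, COX5B and ANB1. Several of the respiratory genes are also known to be repressed by glucose.

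The labels name the deletion strains gcr1 null, nup84 null and nup84gcr1 null, the last lacking both genes, and each was set against wild type on 4 arrays of 2 colours, 12 arrays in all, with 2% glucose for every strain and the wild type. The labels give no oxygen or heme treatment, no strain background and no number of clones, and they do not say whether 1 wild-type RNA served several arrays. Gcr1 is an activator of glycolytic and ribosomal protein genes, and Nup84 belongs to the outer scaffold of the nuclear pore. The series' design text describes 2 kinds of replicate, biological samples and a dye swap of each, so that the 4 arrays of a strain stand for 2 samples (n = 2). On arrays 1 and 2 the deletion strain carried the red dye Cy5, and on arrays 3 and 4 the green dye Cy3. Each value below is a log2 ratio, deletion strain to wild type, centred on the median gene of the array, so that 1 means a doubling relative to the median gene. Because they are ratios, they do not say which isoform is the more abundant.

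Of the deleted genes, NUP84 read -3.19 ± 0.24 (SE, limma, adjusted p = 0.000549) in the nup84 null and -2.74 (adjusted p = 0.000128) in the nup84gcr1 null. GCR1 read 1.08 ± 0.21 (adjusted p = 0.00453) in the gcr1 null, and in the nup84gcr1 null it read 0.78 (adjusted p = 0.0174), above wild type where the labels say it is deleted. Where its probes lie relative to the deleted stretch was not checked. These 2 strains are therefore called the gcr1-labelled and the nup84gcr1-labelled strain, and directions given for the first rest on the labels, while those for the second also have NUP84 below 0 on all 4 arrays. Arrays of the same strain correlated with each other at 0.469 to 0.891 across genes, and genes are not independent replicates.

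The ADP/ATP carrier exchanges mitochondrial ATP for cytosolic ADP. Pet9 is its major aerobic form, Aac1 is a minor aerobic form and Aac3 is the form known for anaerobic growth. AAC3 lay below wild type on all 12 arrays, with nearly the same mean in the 3 strains. Its ratios on arrays 1 to 4 were -1.31, -0.92, -1.03 and -1.07 in the gcr1-labelled strain, a mean of -1.08 ± 0.15 (SD over 2 samples), or 2.12-fold below wild type. They were -1.02, -1.52, -0.97 and -1.19 in the nup84 null, a mean of -1.18 ± 0.25, and -1.08, -1.82, -0.71 and -0.87 in the nup84gcr1-labelled strain, a mean of -1.12 ± 0.32. The arrays of the 3 strains overlap throughout.

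AAC1 lay above wild type on all 12 arrays, and its arrays in the nup84 null do not overlap those of the other strains. It read 1.84, 1.48, 1.60 and 1.08 in the gcr1-labelled strain, a mean of 1.5 ± 0.31 or 2.83-fold. In the nup84 null it read 0.38, 0.66, 0.35 and 0.28, with a mean of 0.42 ± 0.13. For the nup84gcr1-labelled strain the arrays gave 2.29, 1.64, 2.09 and 1.38, a mean of 1.85 ± 0.48 or 3.6-fold, and its arrays overlap those of the gcr1-labelled strain.

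PET9 had means above 0 in the 3 strains and varied widely between arrays. It read 1.06, 0.06, 0.23 and -0.56 in the gcr1-labelled strain (mean 0.20 ± 0.63), and 0.55, 0.87, 0.02 and 0.05 in the nup84 null (mean 0.37 ± 0.13). Arrays of the nup84gcr1-labelled strain gave 1.85, 0.75, 0.96 and -0.12, with a mean of 0.86 ± 0.77. In the gcr1-labelled and nup84gcr1-labelled strains its arrays lie on both sides of 0, and the SD is nearly as large as the mean or larger. The difference AAC3 minus PET9 was nevertheless below 0 on 12 of 12 arrays, with means of -1.28 ± 0.75, -1.55 ± 0.38 and -1.98 ± 0.45 in the gcr1-labelled, nup84 null and nup84gcr1-labelled strains. The balance between the anaerobic and the major aerobic carrier transcript therefore lay lower than in wild type on each array, by 2.43-fold, 2.93-fold and 3.94-fold on average. AAC1 minus PET9, between both aerobic forms, was 1.30 ± 0.32, 0.05 ± 0.05 and 0.99 ± 0.29 in the same order. In the nup84 null 2 of 4 arrays lay on each side of 0, arrays 1 and 2 (deletion strain in Cy5) below and arrays 3 and 4 above.

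**Figure D1:**
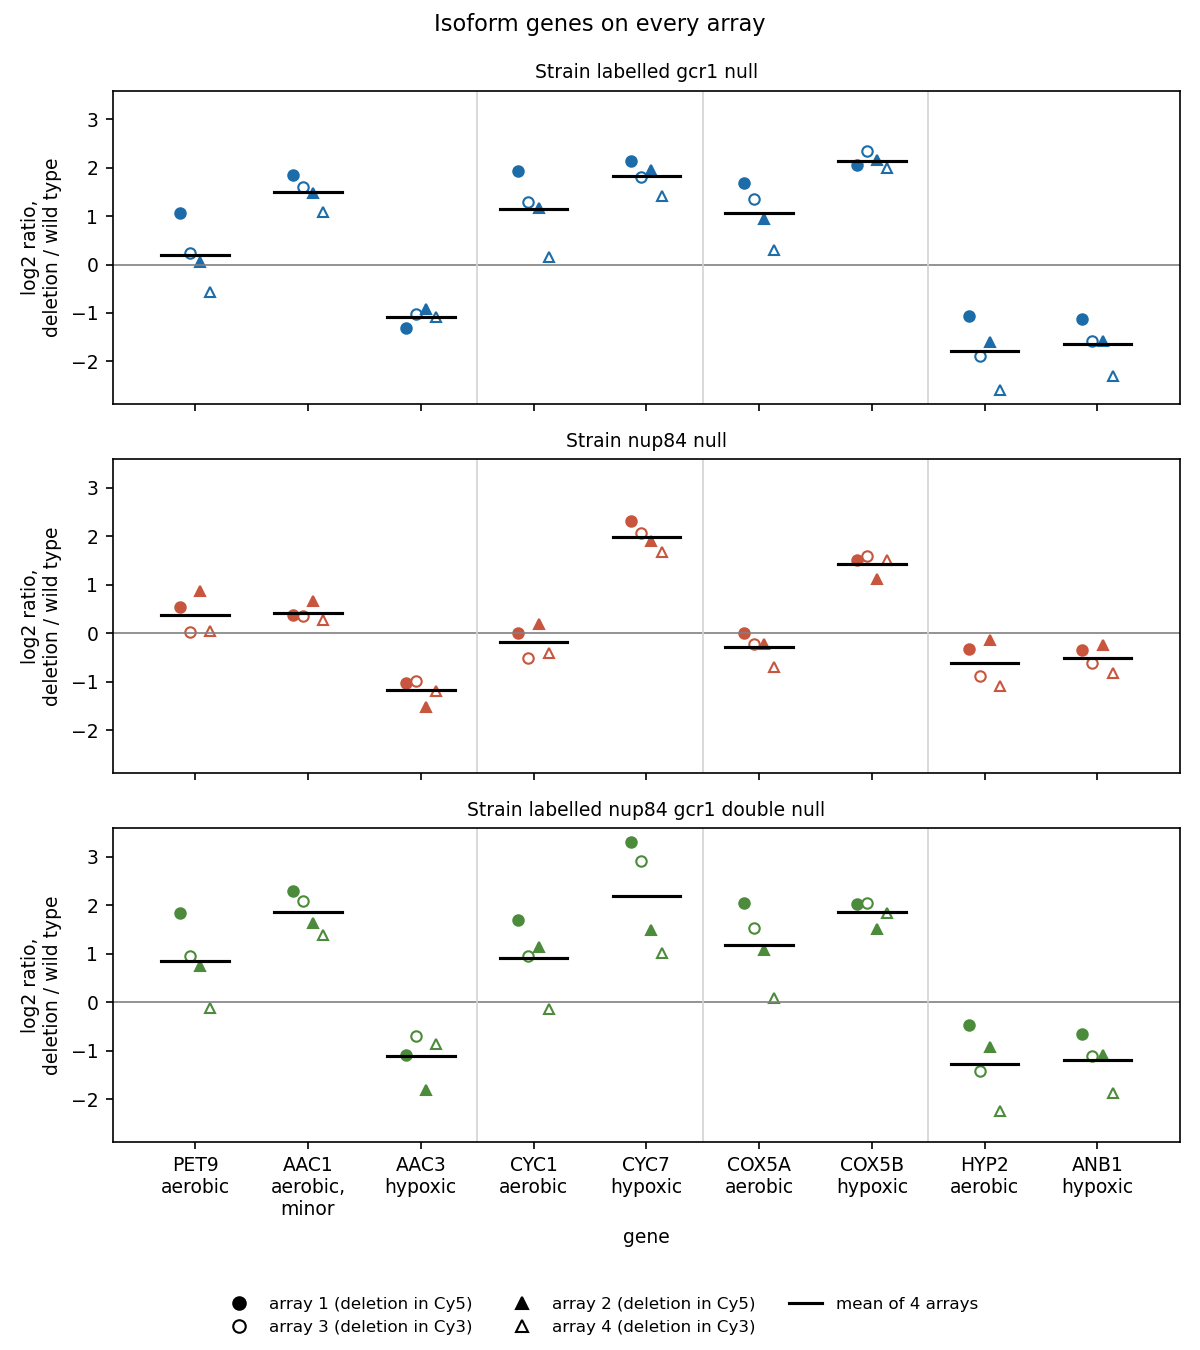
Log2 ratio, deletion strain to wild type (y axis) for the 9 isoform genes (x axis, grouped by protein) in the 3 strains (panels). Each symbol is an array, filled where the deletion strain carried Cy5, and black bars are means of 4 arrays. CYC7 and COX5B sit above 1 on every array and AAC3 sits below -0.7 on every array, while the means of CYC1 and COX5A are near 0 in the nup84 null only.

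Cytochrome c carries electrons to cytochrome c oxidase. CYC1 encodes iso-1-cytochrome c, the main aerobic form, and CYC7 encodes iso-2, whose share is known to be larger at low oxygen. CYC7 lay above wild type on all 12 arrays. Its ratios were 2.14, 1.94, 1.79 and 1.41 in the gcr1-labelled strain, a mean of 1.82 ± 0.21 or 3.53-fold. They were 2.31, 1.90, 2.07 and 1.68 in the nup84 null, with a mean of 1.99 ± 0.28 or 3.97-fold. These 2 strains overlap and have nearly the same mean.

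In the nup84gcr1-labelled strain CYC7 read 3.29, 1.49, 2.92 and 1.02, and the mean of 2.18 ± 1.31 hides a wide gap. Arrays 1 and 3 average 3.11 and arrays 2 and 4 average 1.26, a difference of 1.85. No other isoform gene differed as much between these array pairs in any strain, the next being COX5A at 1.20 in the same strain. The labels do not pair the dye swaps. Across genes, arrays 1 and 3 of this strain correlated at 0.826 and arrays 2 and 4 at 0.748, against 0.469 for arrays 1 and 4 and 0.673 for arrays 2 and 3, and in the other strains as well both of the first pairs correlated above both of the second.

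CYC1 was above wild type in the gcr1-labelled and nup84gcr1-labelled strains and near it in the nup84 null. It read 1.93, 1.17, 1.28 and 0.16 in the gcr1-labelled strain (mean 1.14 ± 0.67, 2.2-fold). In the nup84 null it read 0.01, 0.20, -0.51 and -0.42, with a mean of -0.18 ± 0.10. For the nup84gcr1-labelled strain the arrays gave 1.70, 1.13, 0.95 and -0.14, with a mean of 0.91 ± 0.59. Array 4 is the lowest in both of the strains with a high mean, and through it both overlap the nup84 null.

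CYC7 minus CYC1 was above 0 on 12 of 12 arrays, so the ratio of iso-2 to iso-1 transcript lay above its wild-type value on each. In the gcr1-labelled strain it averaged 0.68 ± 0.46 and ran from 0.20 to 1.25. The nup84 null gave 2.17 ± 0.38, from 1.70 to 2.57 and a mean ratio 4.49 times that of wild type. In the nup84gcr1-labelled strain it was 1.27 ± 0.72, with arrays from 0.36 to 1.97. The nup84 null therefore has the widest gap between both cytochrome c genes, with CYC7 alone above wild type, and its arrays overlap those of the nup84gcr1-labelled strain only.

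Cox5 is a nuclear-encoded subunit of cytochrome c oxidase that comes from COX5A in aerobic and COX5B in hypoxic cells, and the isoform is known to alter the enzyme's turnover. COX5B, the hypoxic gene, lay above wild type on all 12 arrays with little spread. It read 2.06, 2.15, 2.34 and 1.99 in the gcr1-labelled strain (mean 2.14 ± 0.16, 4.4-fold), and 1.51, 1.11, 1.60 and 1.51 in the nup84 null (mean 1.43 ± 0.17, 2.7-fold). Arrays of the nup84gcr1-labelled strain gave 2.02, 1.5, 2.04 and 1.85, a mean of 1.85 ± 0.25 or 3.61-fold. The arrays of the gcr1-labelled strain all lie above those of the nup84 null, and the nup84gcr1-labelled strain overlaps both.

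COX5A followed CYC1. It read 1.69, 0.94, 1.35 and 0.30 in the gcr1-labelled strain (mean 1.07 ± 0.64, 2.1-fold), and 0.00, -0.22, -0.23 and -0.70 in the nup84 null (mean -0.29 ± 0.24). For the nup84gcr1-labelled strain the arrays gave 2.04, 1.08, 1.52 and 0.08, a mean of 1.18 ± 0.85 or 2.27-fold. The arrays of the nup84 null lie below those of both other strains without overlap, although array 4 of the nup84gcr1-labelled strain is close to 0.

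COX5B minus COX5A was 1.07 ± 0.54 in the gcr1-labelled strain, 1.72 ± 0.20 in the nup84 null and 0.67 ± 0.60 in the nup84gcr1-labelled strain. It was above 0 on 11 of 12 arrays, the exception being array 1 of the nup84gcr1-labelled strain at -0.03. As for cytochrome c, the nup84 null shows the hypoxic gene above wild type with its aerobic partner near wild type, whereas both genes lie above wild type in the other strains.

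**Figure D2:**
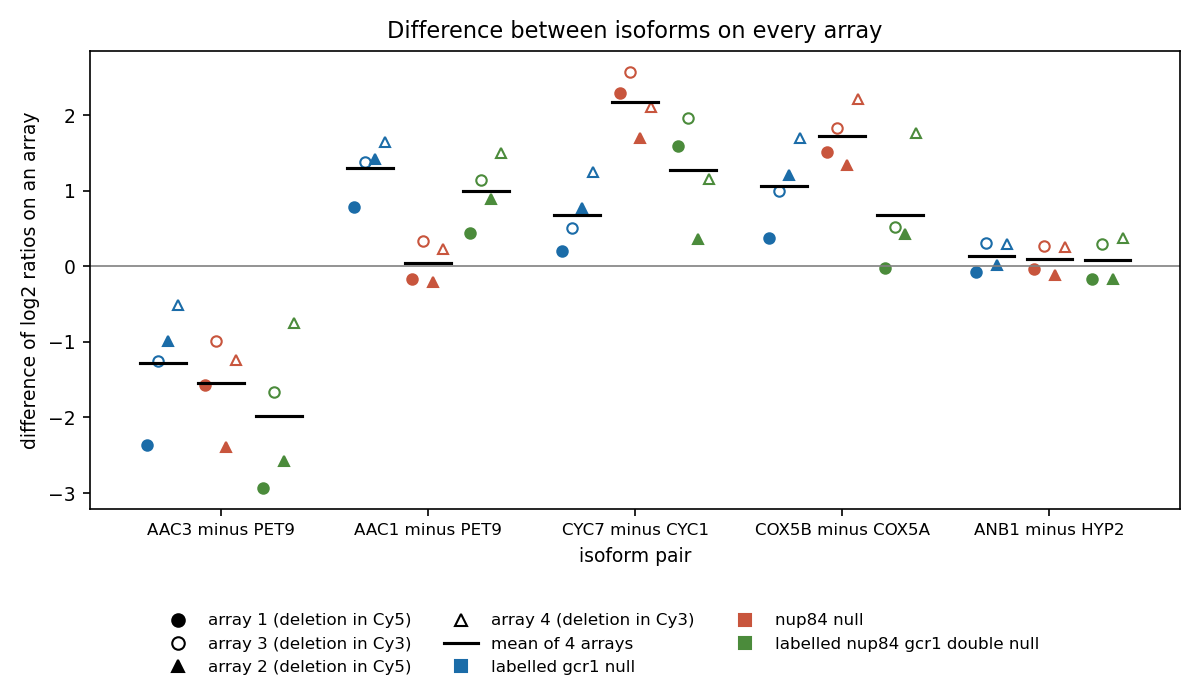
Difference between the log2 ratios of both genes of a pair on each array (y axis) for 5 pairs (x axis), coloured by strain and marked by array, with black bars for means of 4 arrays. Values above 0 mean that the first gene of the pair is higher relative to wild type than the second: CYC7 minus CYC1 is above 0 on 12 arrays, AAC3 minus PET9 is below 0 on 12, and ANB1 minus HYP2 stays between -0.17 and 0.37.

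The factor eIF5A helps ribosomes through difficult peptide stretches and is the substrate for hypusine, a modification made from spermidine. HYP2 encodes it in aerobic and ANB1 in hypoxic cells, and both proteins are nearly identical. HYP2 lay below wild type on all 12 arrays. It read -1.06, -1.60, -1.88 and -2.59 in the gcr1-labelled strain (mean -1.78 ± 0.44, 3.44-fold below), and -0.32, -0.13, -0.89 and -1.08 in the nup84 null (mean -0.60 ± 0.13). Arrays of the nup84gcr1-labelled strain gave -0.48, -0.93, -1.41 and -2.25, a mean of -1.27 ± 0.46. Arrays 3 and 4, with the deletion strain in Cy3, are the lowest in each strain, and the 3 strains overlap.

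ANB1, the hypoxic gene, read almost the same as its aerobic partner. It read -1.13, -1.58, -1.58 and -2.30 in the gcr1-labelled strain (mean -1.65 ± 0.41), and -0.35, -0.25, -0.62 and -0.83 in the nup84 null (mean -0.51 ± 0.11). For the nup84gcr1-labelled strain the arrays gave -0.65, -1.10, -1.12 and -1.88, a mean of -1.19 ± 0.43. ANB1 minus HYP2 averaged 0.13 ± 0.04, 0.09 ± 0.03 and 0.08 ± 0.03 in the 3 strains, and it ranged from -0.17 to 0.37 over 12 arrays. The split followed the dye, with arrays 1 and 2 between -0.17 and 0.02 and arrays 3 and 4 between 0.25 and 0.37. The small SD is therefore that of means over both dyes. Over all 5636 genes, HYP2 was the gene whose ratios were closest to those of ANB1, with a root mean square difference of 0.23 over 12 arrays. ZPR1 was about as close to ANB1 at 0.23. In the other direction RPL13B and RPL17A, at 0.20 and 0.22, were closer to HYP2 than ANB1 was. The 2 probes of ANB1 itself differed by up to 0.17 on an array. Genes for nearly identical proteins can share signal on an array. Whether the probes tell their transcripts apart was not tested, so the values of ANB1 are uncertain.

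**Figure D3:**
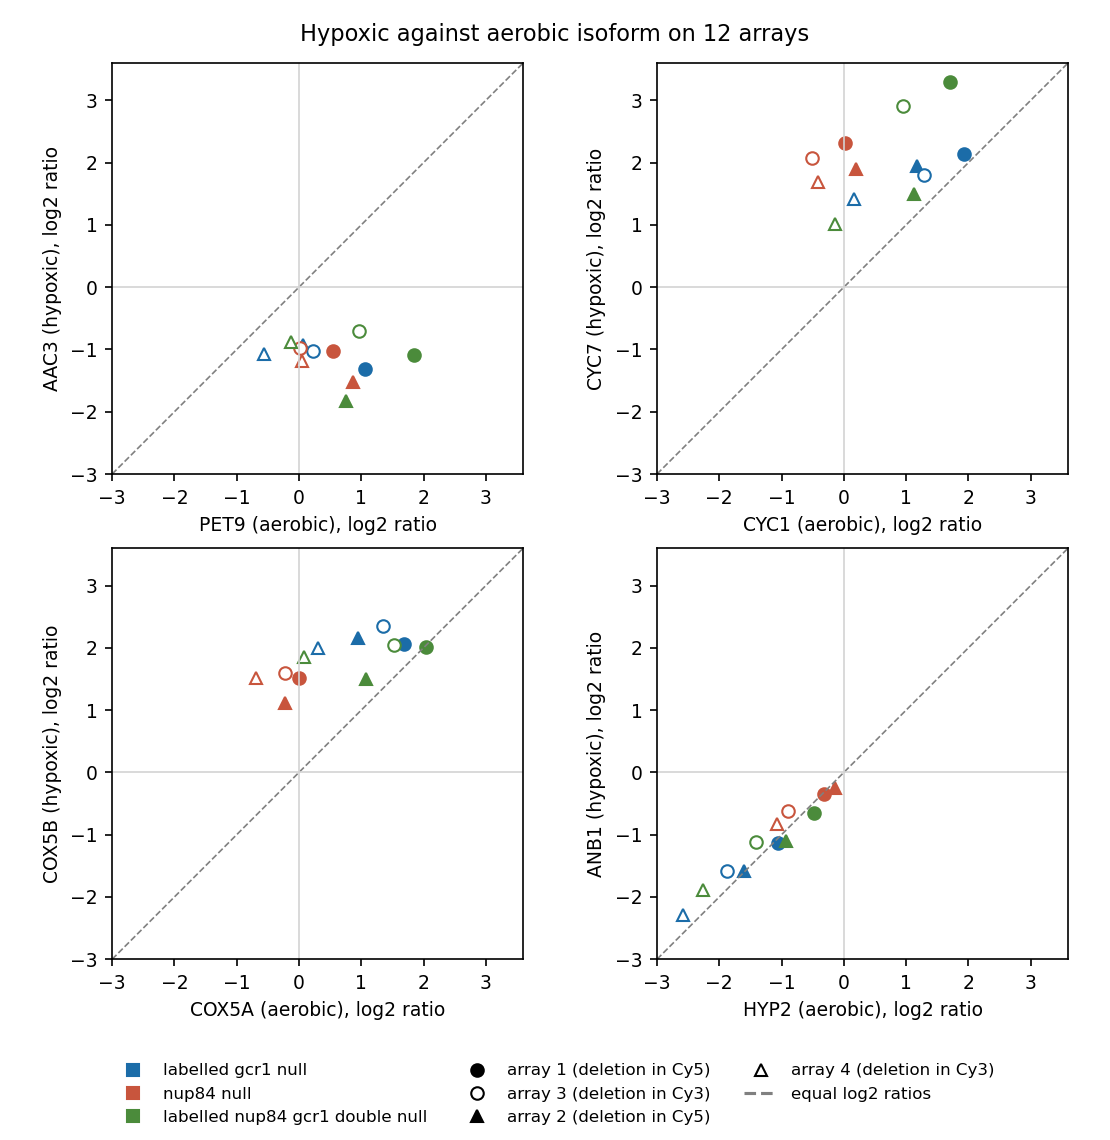
Hypoxic isoform (y axis) against aerobic isoform (x axis), both as log2 ratios to wild type, on 12 arrays coloured by strain. CYC7 and COX5B lie above the dashed line of equal ratios on all arrays but 1 of COX5B, AAC3 lies below it on every array, and HYP2 and ANB1 lie along it.

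The hypoxic genes thus did not share a direction. CYC7 and COX5B lay above wild type and AAC3 lay below it in each of the 3 strains and on all 12 arrays. The ANB1 probes also read below it on all 12, with the doubt about HYP2 given above. The aerobic genes CYC1, COX5A and AAC1 lay above wild type on average in the gcr1-labelled and nup84gcr1-labelled strains, HYP2 lay below it in both, and PET9 had arrays on both sides of 0. In the fit over all genes, 5 isoform genes passed the threshold above and 3 below wild type in the gcr1-labelled strain, where 17.2% and 17.7% of all genes did so. In the nup84 null 2 were above and 1 was below, against 8.61% and 8.09% of all genes, and in the nup84gcr1-labelled strain 5 and 3, against 20.5% and 18.9%. Over the other settings and left-out arrays the number past the threshold ran from 4 to 9, from 0 to 9 and from 6 to 9 in these strains. The upper ends include fits with arrays 1 and 4 taken as a dye swap, a pairing that by itself raised the number of calls. Since the genes were chosen with these contrasts known, nothing is read from the counts. The median isoform gene read 1.07, -0.18 and 0.91 in the 3 strains, beside medians of 0.03, -0.01 and 0.03 over all genes.

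The 3 comparisons share wild type as their control, so the strains are set side by side. Arrays of the gcr1-labelled strain and the nup84 null did not overlap for AAC1, COX5A, COX5B and ANB1, 4 of the 9 genes, and this was so for 21.4% of all genes. Between the nup84gcr1-labelled strain and the nup84 null they did not overlap for AAC1 and COX5A, 2 of 9 genes, against 15% of all genes. Between the nup84gcr1-labelled and gcr1-labelled strains all 9 genes overlapped, where 6.28% of all genes did not. In the corresponding limma tests of the difference between strains, 29 genes (0.515%), 42 genes (0.745%) and 0 genes (0.0%) passed, with 703, 892 and 298 at an unadjusted p under 0.05.

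CYC1 and ANB1 are neighbours on chromosome X in the R64 gene table, with 0 protein-coding genes between them, and their mean ratios, that of ANB1 being uncertain, lay on opposite sides of 0 in the gcr1-labelled and nup84gcr1-labelled strains. CYC7 and HYP2 both lie on chromosome V with 4 protein-coding genes between them, and they too lay on opposite sides of 0 in all 3 strains.

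The genes whose ratios ran closest to each isoform gene over 12 arrays, by root mean square difference and leaving out the isoform genes themselves, were as follows. AAC1 was closest to COX12 at 0.18, a cytochrome c oxidase subunit gene, then ETR1 and COX13 at 0.28 each. CYC1 and COX5A were closest to each other among all genes at 0.28, and then both to TAL1, a pentose phosphate enzyme gene, at 0.32 and 0.30. CYC1 next came to COX6 and KGD4, and COX5A to ATP15 and COX6, all of them genes for mitochondrial proteins. CYC7 had no gene so close: TSL1, a trehalose synthase subunit gene, lay at 0.38, TMA17 at 0.40 and TFS1 at 0.43.

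COX5B was closest to BAG7 at 0.25, then THI21 and YDL218W, and AAC3 to MMP1 at 0.31, then KAP122 and THP2. PET9 was closest to HYR1 at 0.20, LSP1 at 0.21 and HSP150 at 0.24. HYP2 was closest to RPL13B at 0.20 and RPL17A at 0.22, both genes for large ribosomal subunit proteins, then to RPL10. ANB1 came next after HYP2 to ZPR1 at 0.23, ASP1 and SBH2.

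Lists of genes that work with these isoforms were tested. The lists, too, were chosen with earlier results of these data known, so their counts and p-values are not independent evidence. Their counts and medians stand beside the shares of all genes called and the medians of all genes given above. Cytochrome c oxidase is the enzyme that holds Cox5. Of 7 other nuclear subunit genes, 5 rose in the gcr1-labelled strain, 0 rose in the nup84 null (limma, adjusted p under 0.05) and 6 rose in the nup84gcr1-labelled strain, with 0 falling in any. The list's median was 1.10, 0.26 and 1.26 in the 3 strains. COX12 rose by 1.64 ± 0.25 (SE, adjusted p = 0.00165) and by 1.72 ± 0.25 (adjusted p = 0.00106) in the gcr1-labelled and nup84gcr1-labelled strains, and read 0.26 (adjusted p = 0.512) in the nup84 null. COX13, another peripheral subunit gene, rose by 1.34 (adjusted p = 0.00406) and 1.61 (adjusted p = 0.00143) in the same strains. COX6 rose by 1.04 (adjusted p = 0.0096) and 1.06 (adjusted p = 0.00787), and COX4 by 1.10 (adjusted p = 0.0129) in the gcr1-labelled strain. COX4 also rose by 1.46 (adjusted p = 0.00311) in the nup84gcr1-labelled strain, a call left out of the counts of named calls below. The lowest call was COX7 at 0.78 (adjusted p = 0.0386) in the nup84gcr1-labelled strain, where array 4 read -0.09. Without arrays 1 and 3 of the gcr1-labelled strain the count there was 1, and without arrays 2 and 4 it was 3. Over the other settings, with all arrays kept, the counts ran from 5 to 7, 0 to 5 and 5 to 7 in the 3 strains. The difference between strains passed for 0 of the 73 listed genes of all kinds in any pair of strains, with 14, 12 and 1 at an unadjusted p under 0.05 and a lowest adjusted p of 0.0898 for the gcr1-labelled strain minus the nup84 null.

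Cytochrome c passes electrons between complex III, lactate dehydrogenases and peroxidase. Of 7 such partner and maturation genes, 3 rose in the gcr1-labelled strain, 1 in the nup84 null and 3 in the nup84gcr1-labelled strain, and 0 fell. The medians were 0.59, 0.07 and 0.44. CYB2, encoding L-lactate cytochrome c oxidoreductase, rose in every strain, by 3.21 ± 0.27 (adjusted p = 0.000123), 1.81 ± 0.27 (adjusted p = 0.00602) and 3.27 ± 0.27 (adjusted p = 0.000114). DLD1, for the D-lactate enzyme, rose by 1.40 (adjusted p = 0.00385) and 1.45 (adjusted p = 0.00273) in the gcr1-labelled and nup84gcr1-labelled strains and read 0.07 in the nup84 null. CYT1, encoding cytochrome c1, rose by 0.96 (adjusted p = 0.0214) and 1.22 (adjusted p = 0.00669) in the same strains. Over the other settings, with all arrays kept, the counts ran from 2 to 5, 1 to 3 and 3 to 5. They dropped in the gcr1-labelled strain and in the nup84 null when arrays 1 and 3 or arrays 2 and 4 of that strain were left out.

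The ADP/ATP carrier works beside phosphate carriers and supplies ADP to the ATP synthase. Of 11 genes of these functions, 7 rose and 1 fell in the gcr1-labelled strain, 3 rose and 1 fell in the nup84 null, and 7 rose and 1 fell in the nup84gcr1-labelled strain, with medians of 1.02, 0.56 and 1.02. INH1, an inhibitor of the ATP synthase, rose by 2.01 ± 0.28 (adjusted p = 0.00103), 1.47 ± 0.28 (adjusted p = 0.0117) and 2.36 ± 0.28 (adjusted p = 0.000402). ATP3, the gamma subunit gene, rose by 1.68 (adjusted p = 0.00118), 1.30 (adjusted p = 0.0106) and 2.22 (adjusted p = 0.000263). The lowest calls were ATP2 at 0.92 (adjusted p = 0.0451) in the nup84 null, ATP5 at 0.93 (adjusted p = 0.0418) in the gcr1-labelled strain and ATP16 at 1.01 (adjusted p = 0.0233) in the nup84gcr1-labelled strain. ANT1, which encodes the adenine nucleotide carrier of the peroxisome, fell instead, by 1.26 (adjusted p = 0.00339), 0.87 (adjusted p = 0.0319) and 0.97 (adjusted p = 0.00912). The count of rising genes fell to 2 without arrays 1 and 3 of the gcr1-labelled strain and was 4 without arrays 2 and 4. It was 0 without either pair of the nup84 null, and 5 and 9 without these pairs of the nup84gcr1-labelled strain. The fall of ANT1 lost its call in the gcr1-labelled strain without arrays 2 and 4 of that strain, and in the nup84 null without either of its pairs and in 7 of 33 settings in all.

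Hypusine is made from spermidine by deoxyhypusine synthase and hydroxylase. Of 7 genes for hypusine modification and polyamine synthesis, 3 fell in each strain, and 1, 0 and 1 rose, with medians of -0.75, -0.60 and -0.80. LIA1, the deoxyhypusine hydroxylase gene, fell by 1.65 ± 0.23 (adjusted p = 0.0011), 1.24 ± 0.23 (adjusted p = 0.0108) and 1.76 ± 0.23 (adjusted p = 0.000653). SPE3, the spermidine synthase gene, fell by 1.54 (adjusted p = 0.00194), 1.02 (adjusted p = 0.0251) and 1.38 (adjusted p = 0.00273). DYS1, the deoxyhypusine synthase gene, passed in the nup84 null at -1.25 (adjusted p = 0.0238), and the spermine synthase gene SPE4 in the gcr1-labelled and nup84gcr1-labelled strains at -1.09 (adjusted p = 0.0115) and -0.93 (adjusted p = 0.0201). OAZ1, whose protein inhibits polyamine synthesis, rose by 1.22 (adjusted p = 0.004) and 0.69 (adjusted p = 0.0384) in the same strains. Over the other settings, with all arrays kept, the falling counts ran from 3 to 5, 3 to 6 and 2 to 5. Without arrays 1 and 3 or arrays 2 and 4 of the strain, the count dropped in the gcr1-labelled strain, and the falls in the nup84 null lost their calls.

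**Figure D4:**
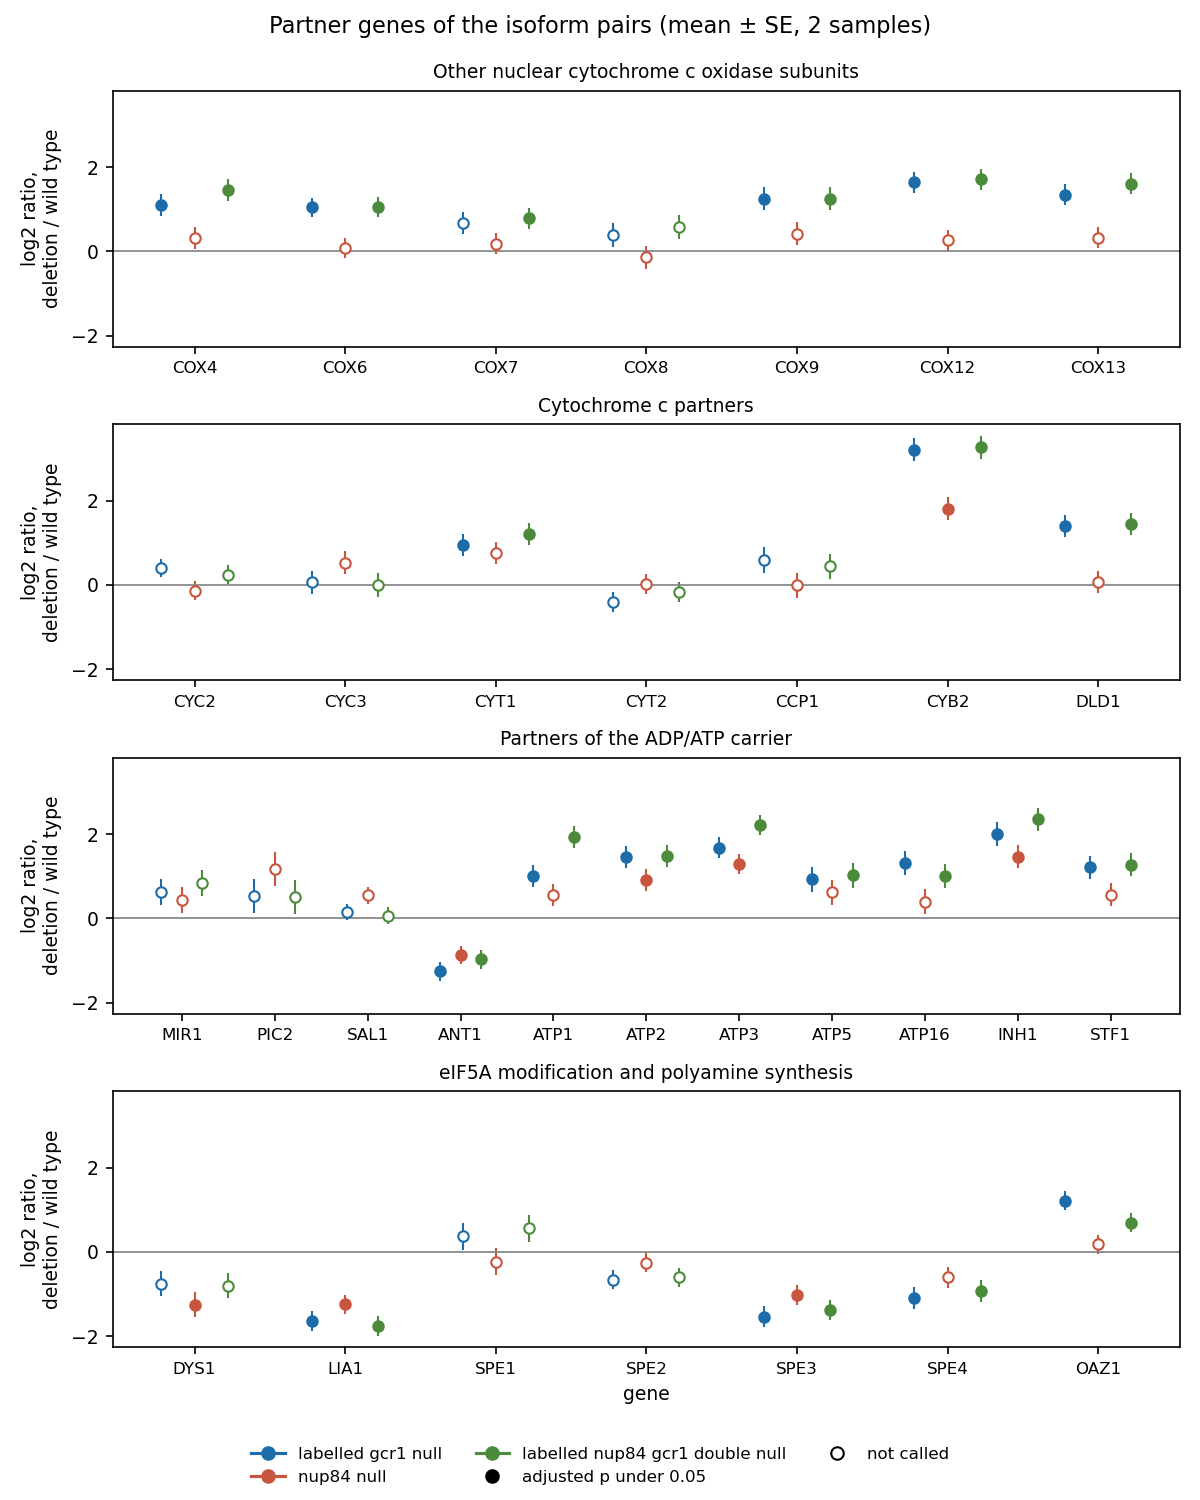
Log2 ratio, deletion strain to wild type (y axis, mean with SE from limma over 2 samples) for genes of 4 lists (panels) that work with the isoform proteins. Filled points passed an adjusted p of 0.05: 5 and 6 cytochrome c oxidase subunit genes are filled in the gcr1-labelled and nup84gcr1-labelled strains and 0 in the nup84 null.

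Of 15 regulator genes, 0 rose and 1 fell in each strain, with medians of 0.03, -0.11 and 0.08. The gene that fell was TUP1, of the general corepressor that Rox1 recruits. It fell by 1.14 ± 0.24 (adjusted p = 0.0072) in the gcr1-labelled strain, by 1.01 (adjusted p = 0.0249) in the nup84 null and by 0.96 (adjusted p = 0.0136) in the nup84gcr1-labelled strain, with all 4 arrays below 0 in each. Its call was lost without arrays 2 and 4 in the gcr1-labelled strain (adjusted p = 0.167), without either pair of arrays in the nup84 null (adjusted p = 0.267 and 0.319) and without arrays 2 and 4 in the nup84gcr1-labelled strain (adjusted p = 0.0839). Single arrays also ended it, namely array 4 of the nup84 null (adjusted p = 0.0718) and array 2 or 3 of the nup84gcr1-labelled strain (adjusted p = 0.0851 and 0.0643) for the nup84 null, and array 3 of the nup84gcr1-labelled strain for that strain (adjusted p = 0.0617). Its partner CYC8 read 0.03, 0.24 and 0.50 and passed in none.

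ROX1, the repressor of the hypoxic isoforms, read -0.37, -0.21 and -0.35 in the gcr1-labelled, nup84 null and nup84gcr1-labelled strains, with adjusted p-values of 0.222, 0.534 and 0.229. The heme activator HAP1 read 0.28, -0.38 and -0.16. Of the Hap complex, HAP2 read 0.00, -0.11 and 0.20, HAP3 -0.38, -0.53 and 0.30, HAP4 0.05, 0.63 and -0.21, and HAP5 0.47, 0.11 and 0.22. None of these passed the test in any strain. The other hypoxic repressors and activators did not pass either. MOT3 read 0.15, 0.00 and 0.11, IXR1 -0.17, -0.61 and -0.45, UPC2 -0.33, 0.17 and -0.57, and ECM22 -0.11, -0.54 and -0.18. SUT1, for sterol uptake, read 0.55, -0.37 and 0.16, and the fatty acid desaturase activators MGA2 and SPT23 read 0.44, 0.19 and 0.08 and 0.47, -0.08 and 0.56. With the SE of these genes between 0.20 and 0.37, a shift well under a doubling could not be told from 0. For CYC8, with an SE of 0.37, a doubling itself would not have passed in any strain. Nor would it have passed in the nup84 null for MGA2 and HAP4, with an SE of 0.31 and 0.30. The counts of falling and of rising regulators also moved in each strain when arrays were left out, which for some pairs of arrays also changed the swap pairing.

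**Figure D5:**
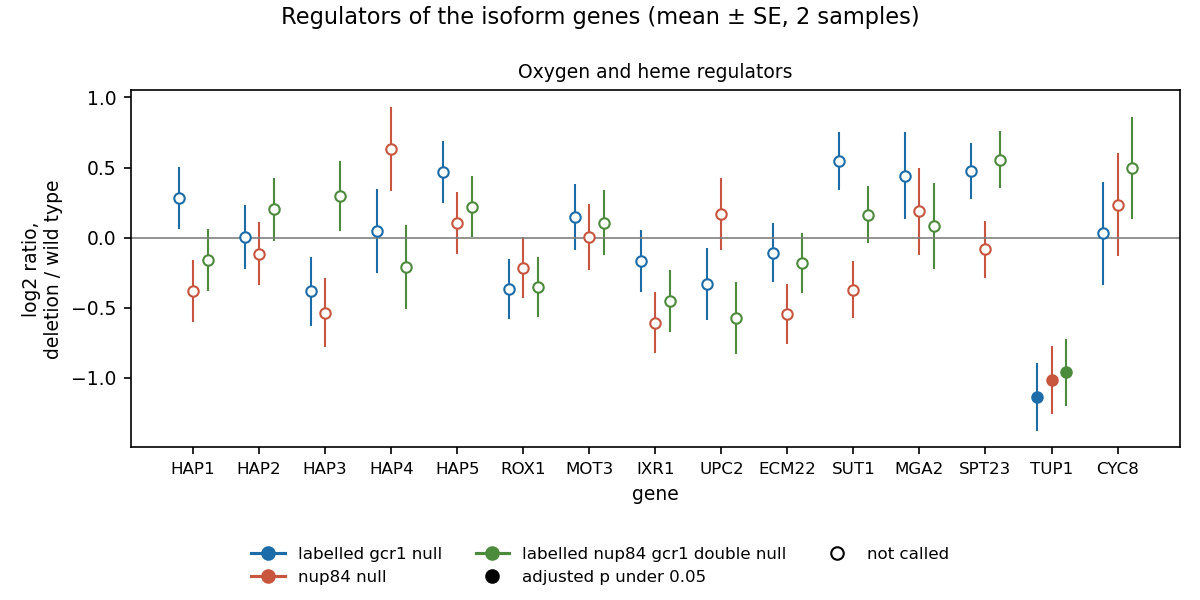
Log2 ratio, deletion strain to wild type (y axis, mean with SE from limma over 2 samples) for 15 oxygen and heme regulator genes (x axis), coloured by strain. Filled points passed an adjusted p of 0.05, which TUP1 did in all 3 strains and no other gene did in any.

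Other genes known to be induced at low oxygen or heme numbered 13 measured (DAN2 and DAN3 had no probe naming them). Of these, 3 rose and 2 fell in the gcr1-labelled strain, where 17.2% and 17.7% of all genes did so. In the nup84 null 0 rose and 1 fell, against 8.61% and 8.09% of all genes. In the nup84gcr1-labelled strain 1 rose and 0 fell, against 20.5% and 18.9%. The medians were -0.08, -0.12 and -0.00, beside 0.03, -0.01 and 0.03 over all genes. No direction of the list is read from these counts. These counts moved with the arrays left out: without arrays 1 and 3 of the nup84gcr1-labelled strain 6 of the 13 fell there, and without its arrays 2 and 4, 3 rose. In the gcr1-labelled strain, the sterol importer genes AUS1 and PDR11 rose by 0.92 (adjusted p = 0.00797) and 0.83 (adjusted p = 0.0185), while the cell wall mannoprotein genes TIR1 and TIR3 fell by 1.08 (adjusted p = 0.0152) and 0.80 (adjusted p = 0.0322). PDR11 also rose by 0.94 (adjusted p = 0.00947) in the nup84gcr1-labelled strain, and the iron transporter gene FET4 fell by 1.08 (adjusted p = 0.0327) in the nup84 null. All 5 calls in the gcr1-labelled strain, and FET4 in the nup84 null, were lost when either of the strain's own pairs of arrays was left out.

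Of 8 other genes known to be activated by heme or oxygen, 3 rose and 1 fell in the gcr1-labelled strain, 2 rose and 1 fell in the nup84 null, and 3 rose and 1 fell in the nup84gcr1-labelled strain. Besides CYB2 and CYT1 given above, the cytosolic catalase gene CTT1 rose by 2.37 ± 0.25 (adjusted p = 0.000256), 2.54 ± 0.25 (adjusted p = 0.000953) and 2.89 ± 0.25 (adjusted p = 0.000114). YHB1, the flavohemoglobin gene, fell by 0.99 (adjusted p = 0.0472) and 1.64 (adjusted p = 0.00526) in the gcr1-labelled and nup84gcr1-labelled strains, and ARE2, a sterol esterification gene, fell by 0.76 (adjusted p = 0.0463) in the nup84 null. The medians were 0.30, 0.25 and 0.35. The rising counts were 2 without either pair of arrays of the gcr1-labelled strain, 1 without arrays 1 and 3 and 0 without arrays 2 and 4 of the nup84 null, and 3 and 5 for these pairs of the nup84gcr1-labelled strain. The falling counts were 0 without either pair in the gcr1-labelled strain and in the nup84 null, where YHB1 and ARE2 respectively were each lost in 13 of 33 settings.

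Of 9 genes for making and breaking down heme, 1 rose and 2 fell in the gcr1-labelled strain, 0 rose and 2 fell in the nup84 null, and 2 rose and 2 fell in the nup84gcr1-labelled strain, with medians of -0.18, -0.09 and -0.12. HEM2 and HEM3, for early steps of the pathway, fell in each strain, HEM2 by 0.80 (adjusted p = 0.0256), 0.82 (adjusted p = 0.0419) and 1.12 (adjusted p = 0.00532), and HEM3 by 0.65 (adjusted p = 0.0434), 0.81 (adjusted p = 0.0343) and 0.81 (adjusted p = 0.0163). HMX1, the heme oxygenase gene, rose by 2.12 ± 0.26 (adjusted p = 0.000518) and 1.90 ± 0.26 (adjusted p = 0.000724) in the gcr1-labelled and nup84gcr1-labelled strains. HEM1, for the first step, rose by 1.0 (adjusted p = 0.0356) in the nup84gcr1-labelled strain, but ran from 0.36 to 1.63 with arrays left out, with an adjusted p of up to 0.353, and its call was lost in 7 of 33 settings. The falling count was 0 without either pair of arrays of the gcr1-labelled strain or of the nup84 null, and 4 and 2 for arrays 1 and 3 and arrays 2 and 4 of the nup84gcr1-labelled strain. Of all 66 calls named here, with those of NUP84 and GCR1, 64 had all 4 arrays of the strain on 1 side of 0. COX7 and ATP16 in the nup84gcr1-labelled strain had 3 of 4. The calls were made on these same arrays, so this agreement was largely fixed in advance and is no further evidence.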

How the data were processed

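The authors deposited 1 table of log ratios per probe for 12 arrays, read here as log2 of Cy5 over Cy3. The table writes neither the log base nor the direction. The first was inferred from the values and the second from the dyes, per the labels, and from NUP84. The labels and the table do not say how the values were scaled, and channel intensities were not used here. Per the labels' protocols, an Agilent linear amplification kit labelled the RNA.

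Signs of arrays 3 and 4 were turned, probes naming 1 gene (9271 of 10807, with 1536 naming none) were averaged to 5636 genes, and each array was centred on its median, which had ranged from -0.162 to 0.099. There were 0 columns of other series. Tests used limma 3.58.1 in R 4.3.3 on the means of swapped arrays, with all 3 strains in 1 fit. The labels do not pair the swaps, so both possible pairings (array 1 with 3, or array 1 with 4) were fitted and the larger p and SE kept. P-values were adjusted by Benjamini-Hochberg over 5636 genes, and a gene was called under 0.05. The procedure was also run on simulated data, with few changed genes and the same spread in every strain. These data differ in both, so that run does not give the error rates here. The isoform genes were in the fit over all genes, but no test of them is read. Their SD is that of 2 sample means, the larger of both pairings. The design text of the series does not say whether the biological replicates were separate cultures, so p-values reach no further than these samples. The spread behind each SE and p-value was estimated over the samples of all 3 strains together and moderated across genes. It is not the spread of 1 strain's 2 samples. With arrays 1 and 3 as swaps, the SD over genes of a strain's sample difference was 0.497, 0.421 and 0.807. The order is gcr1-labelled, nup84 null and nup84gcr1-labelled, and the pooled spread can be too small for the last. The number of arrays limits the precision.

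The isoform genes and the lists were chosen with earlier results of these data known. The text names every isoform gene and regulator, of each other list the called genes with the 2 largest and 2 smallest ratios in a strain, for each isoform gene the 3 closest other genes, and both deleted genes. The alternatives were centring, scaling, array pairing, unit of replication, a dye term, a replicate block, a 2-fold limit, the treatment of probes and left-out arrays. Plots used matplotlib 3.10.9 (Python 3.11.15).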

Additional observations from a re-analysis of the deposited data

How the results depend on the processing

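The counts of genes called depend on how arrays are paired. The main counts are 1964, 941 and 2224 in the gcr1-labelled, nup84 null and nup84gcr1-labelled strains, and 29, 0 and 42 for gcr1 minus nup84, double minus gcr1 and double minus nup84. With arrays 1 and 4 as swaps only, these were 4475, 4192, 4629, 3149, 2340 and 3582. The 4 arrays as replicates with a dye term gave 3265, 2599, 3432, 902, 226 and 1222, and without it 2020 in the nup84 null and 401, 66 and 522 for the differences. A 2-fold limit left 1204, 588 and 1358. Scale normalization gave 1923 in the nup84 null and 46 and 0 for gcr1 and double minus nup84. Deviations of same-numbered samples correlated at 0.552 between the gcr1-labelled and nup84gcr1-labelled strains and at -0.00529 and 0.0985 in the other pairs of strains with arrays 1 and 3 as swaps, and at 0.252, 0.00398 and 0.219 with arrays 1 and 4. They were not all over 0.1, so the numbers were not taken to pair samples. The replicate block moved only 1 count by over 1.5 times, that for double minus nup84, to 71. Leaving out arrays gave 535 to 4564, 5 to 4303, 1586 to 4586, 0 to 3339, 0 to 2104 and 0 to 3450.

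Scale normalization moved AAC3 minus PET9 to -1.95, CYC7 minus CYC1 to 2.73 and COX5B minus COX5A to 2.12 in the nup84 null, and ANB1 minus HYP2 to 0.040 in the nup84gcr1-labelled strain. With arrays left out, AAC3 minus PET9 ran from -1.81 to -0.75, -1.82 to -1.27 and -2.39 to -1.66, and AAC1 minus PET9 from 1.08 to 1.53, -0.051 to 0.13 and 0.79 to 1.19. CYC7 minus CYC1 ran from 0.36 to 1.01, 1.90 to 2.43 and 0.76 to 1.78, COX5B minus COX5A from 0.68 to 1.45, 1.56 to 1.86 and 0.25 to 1.10, and ANB1 minus HYP2 from 0.078 to 0.20, 0.034 to 0.16 and -0.016 to 0.17. Of 66 named calls, 23 held in all 33 other settings, 43 were lost in at least 1 and 0 reversed, and 35 of 44 named values that were not called passed in at least 1. Of 15 named calls in the nup84 null, 1 held in all settings. The cause was not tested. Without intensities, dim or saturated probes remain unknown.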

Other observations

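A dye shift of the same sign in every strain was common among all genes, and the isoform genes were no exception. With the deletion strain in Cy5 rather than Cy3, 7 of the 9 read higher in each of the 3 strains and 2, AAC3 and COX5B, read lower, while 56.5% of all genes read higher and 26.1% lower in each. HYP2 moved most, by 0.91, 0.76 and 1.13 in the gcr1-labelled, nup84 null and nup84gcr1-labelled strains, and CYC1 by 0.83, 0.57 and 1.01. The means over swapped arrays hold both orientations equally.

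Arrays 1 and 3 differed from arrays 2 and 4, for isoform genes and for genes at large. Over all genes the SD of this difference was 0.497 in the gcr1-labelled strain, 0.421 in the nup84 null and 0.807 in the nup84gcr1-labelled strain. PET9 differed by 0.90 and 1.09 in the gcr1-labelled and nup84gcr1-labelled strains, and CYC1 by 0.94 and 0.83. In the nup84 null PET9 and CYC1 differed by -0.18 and -0.14, and CYC7 by 0.39.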
